A study of Mus musculus with 12 samples.

Results

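The 42 genes described here encode the machinery by which natural killer (NK) cells carry proteins into the endoplasmic reticulum (ER), fold them there and remove those that fail to fold, with the sensors of the unfolded protein response. They were taken by gene symbol from a list of 42 names, and all 42 were found among the 55487 features of the deposited table. The list was chosen by pathway with the log2 CPM differences between the 3 sample groups in view, and Fkbp11 was selected on its rise in reporter-positive cells. Its levels, and the whole comparison of reporter-positive with reporter-negative cells, are therefore given as a description: no p-value of a gene is printed for them, and nothing is read from counts past the threshold in that comparison.

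All 12 samples were NK cells from mice of the strain B6.129S4-Ifngtm3.1Lky/J with the genotype mut/mut. In these mice yellow fluorescent protein (YFP) is a reporter of the interferon gamma gene (Ifng). All 12 samples carried the label HD IL-15. Of these, 4 samples were unstimulated, with no time given. The other 8 were treated with anti-NK1.1, an antibody to an activating surface receptor, for 6 hours, and comprised 4 YFP- and 4 YFP+ samples. All groups therefore share the reporter allele and the HD IL-15 label, no group lacks the reporter, and the labels give no ages. The labels f2, m2, m3 and m4 name a replicate in each group, and it is not stated if a shared label means a shared mouse, so p-values measure the spread between these samples.

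Secretory proteins such as cytokines and granule proteins enter the ER through the Sec61 translocon, lose their signal sequence to signal peptidase, and are folded by chaperones, disulfide isomerases and prolyl isomerases. Proteins that do not fold are pulled back to the cytosol and degraded, a process called ER-associated degradation. When folding demand exceeds capacity, the membrane sensors IRE1 (gene Ern1), ATF6 and PERK start the unfolded protein response. IRE1 splices the Xbp1 transcript, and the factors XBP1 and ATF6 then switch on genes of folding and degradation. Reads counted per gene do not show whether Xbp1 was spliced.

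Library totals were 32.1 to 54.2 M reads, and 3 reads corresponded to 0.0553 to 0.0933 CPM, the unit of level used throughout, which scales the reads of a gene by all reads counted in the library (M stands for mega). The share of reads on rRNA-like features was 27.4 to 35.3% in the unstimulated group, 15.9 to 30.3% in the YFP- group and 13.7 to 29.8% in the YFP+ group. Among the 41 genes that passed the filter on low values, the unstimulated library m4 had the lowest level of its group for 27, the YFP- library m3 for 28 and the YFP+ library m3 for 20. These were also the libraries with the highest rRNA-like share of their groups, at 35.3, 30.3 and 29.8%. Of 12 NK cell markers, 3 were higher and 6 lower in each stimulated group than in unstimulated cells (limma, adjusted p under 0.05). That was 75% in each, beside 51.1% of all genes in YFP- and 60.8% in YFP+ cells. In unstimulated, YFP- and YFP+ samples, Ncr1 was at 244 to 249, 182 to 245 and 105 to 138 CPM. Klrd1 was at 358 to 415, 244 to 289 and 150 to 178 CPM, and Gzmb at 5120 to 6690, 11600 to 13700 and 21100 to 28300 CPM. Klrb1c, which encodes NK1.1 itself, had 290 to 327 CPM without stimulation, 57.6 to 86.6 CPM among YFP- samples and 3.70 to 8.97 CPM among YFP+ samples. These are bulk samples, in which fewer cells of a type and less RNA per cell cannot be told apart.

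Most of the 42 genes were higher in stimulated than in unstimulated cells. Against unstimulated cells, 29 of the 41 genes tested rose in YFP- cells and 3 fell (Sdf2l1, Edem1 and Fkbp2), while 9 did not pass the test (limma, Benjamini-Hochberg adjusted p under 0.05 over all genes). Among all 12364 genes tested in that comparison, 51.1% were called, 30.2% higher and 20.9% lower. In YFP+ cells, 34 of 41 rose against unstimulated cells, 1 fell (Fkbp2) and 6 did not pass, beside 60.8% of all genes called, 27.5% higher and 33.3% lower. Both comparisons use the same 4 unstimulated samples. Fkbp11 passed the filter through its level in stimulated cells, and without it the counts were 28 higher and 3 lower of 40 in YFP- cells and 33 higher and 1 lower of 40 in YFP+ cells. Without the YFP+ library m3, 37 members were called in YFP+ cells, beside 63% of all genes. Without the unstimulated library m4, 28 were called in YFP- and 31 in YFP+ cells, beside 45% and 57% of all genes. The calls lost without the unstimulated library m4 were those of Derl2 (adjusted p = 0.0514), Canx (0.13), P4hb (0.118) and Sec11a (0.0776) in YFP- cells, and of Canx (0.0526), Ssr1 (0.0594), Sec11c (0.11) and Sec61g (0.056) in YFP+ cells.

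The median log2 fold change of the 41 genes was 0.63 in YFP- and 0.89 in YFP+ cells against unstimulated cells, beside medians of 0.14 and -0.03 over all genes tested. The scale of the libraries moves those 2 medians. Over all genes, the median was -0.05 and -0.21 on totals without rRNA-like features, and 0.11 and 0.10 with trimmed-mean (TMM) scaling. That first rescaling also moved the split of all calls to 24.9% higher and 27.9% lower in YFP- cells, and to 23.1% higher and 39.7% lower in YFP+ cells. On those totals 26 of the 41 genes were called in YFP- cells, 22 higher and 4 lower (median 0.45), and 31 in YFP+ cells, 29 higher and 2 lower (median 0.70). The calls lost there were those of Canx, Derl2, P4hb, Sec11a, Sec62, Sec63 and Spcs1 in YFP- cells and of Canx, Sec11c, Sec61g, Spcs1 and Ssr4 in YFP+ cells. With quantile normalization 26 and 28 of the 41 genes were called, beside 54.4% and 63.5% of all genes. Group means rose at both steps, from unstimulated to YFP- to YFP+, for 33 of the 41 genes (80.5%) and for 2808 of 12364 genes (22.7%), a description that includes the comparison used for the choice of genes.

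**Figure D1:**
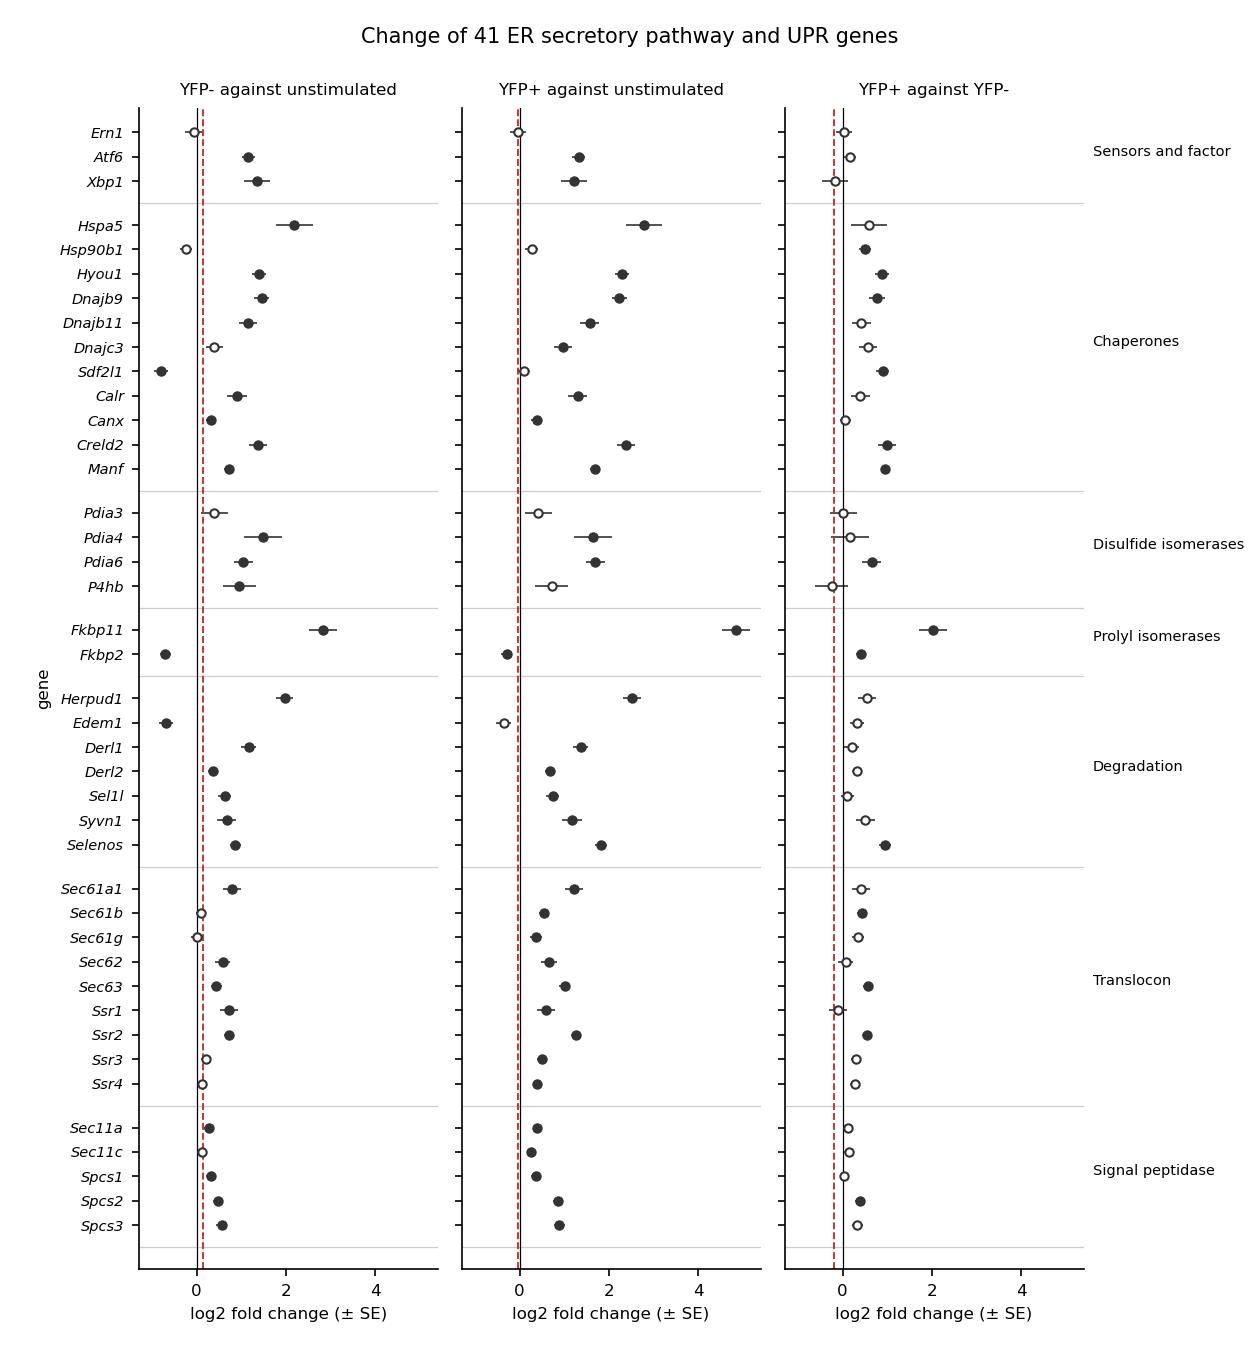
Log2 fold change (x axis, ± standard error) of the 41 genes that passed the filter (y axis), by role, in the 3 comparisons. Filled points passed an adjusted p of 0.05 in limma (in the right panel this is a description only), open points did not, and the dashed line is the median of all genes tested. In YFP- cells against unstimulated cells, 3 filled points lie left of 0.

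**Figure D2:**
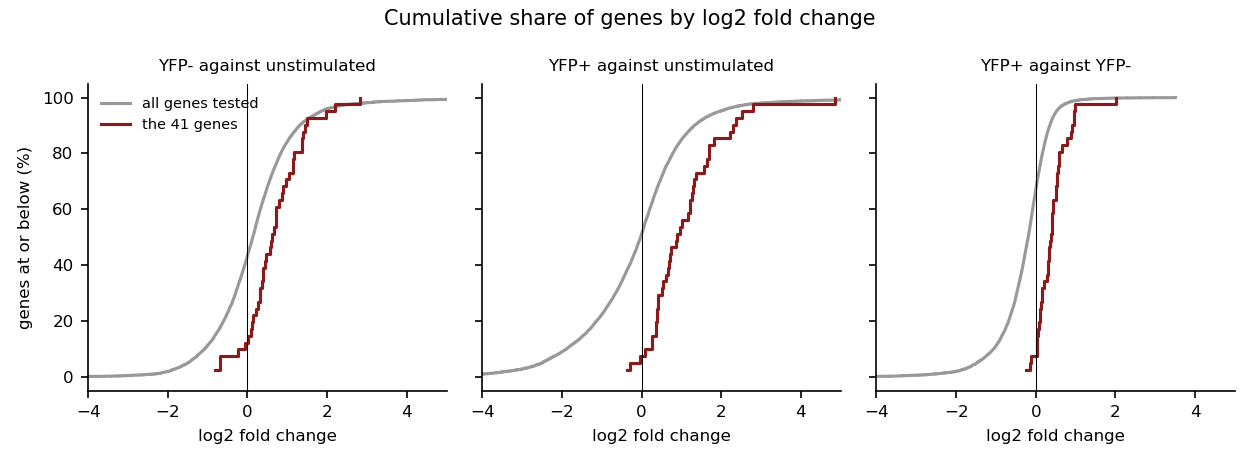
Percentage of genes (y axis) at or below each log2 fold change (x axis) for the 41 genes and for all genes tested. The median of the 41 genes lies at 0.63, 0.89 and 0.39 in the 3 panels, right of the medians of all genes at 0.14, -0.03 and -0.19.

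Of the sensors and the factor Xbp1, Atf6 and Xbp1 rose in both stimulated groups and Ern1 did not pass the test in either. Atf6 (chromosome 1, 170704674 to 170867771 in GRCm38) encodes the sensor that is cut in the Golgi to release a transcription factor. Its level was 9.73, 7.79, 9.97 and 9.59 CPM in unstimulated samples f2, m2, m3 and m4, then 21.3, 22.7, 18.5 and 19.9 CPM in YFP- and 25.7, 25.8, 21.4 and 19.8 CPM in YFP+ samples. Every stimulated sample was above every unstimulated one, whereas the ranges of YFP- and YFP+ samples overlapped. The log2 fold change was 1.16 ± 0.14 (SE, 4 samples per group; adjusted p = 1.8e-05) in YFP- and 1.32 ± 0.14 (adjusted p = 2.3e-06) in YFP+ cells.

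Xbp1 (chromosome 11, 5520659 to 5525893) encodes the factor made active by splicing. Unstimulated samples held 188, 188, 166 and 92.7 CPM, YFP- samples 408, 428, 344 and 394 CPM, and YFP+ samples 401, 487, 181 and 436 CPM. All YFP- samples lay above all unstimulated ones, and in YFP+ cells the library m3 fell within the unstimulated range. Xbp1 rose by 1.36 ± 0.29 (adjusted p = 0.0015) in YFP- and by 1.21 ± 0.29 (adjusted p = 0.0024) in YFP+ cells on the log2 scale. Leaving out the YFP+ library m3 gave 1.53 for YFP+ cells. Ern1, the sensor that splices Xbp1, was low throughout, at 6.90, 8.29, 9.76 and 10.5 CPM in unstimulated, 10.4, 7.70, 6.45 and 9.38 CPM in YFP- and 8.13, 9.02, 8.59 and 8.24 CPM in YFP+ samples. Its groups overlapped in every comparison, with log2 fold changes of -0.07 ± 0.18 (adjusted p = 0.772) and -0.04 ± 0.18 (adjusted p = 0.856), and the sign of the second changed with scaling.

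**Figure D3:**
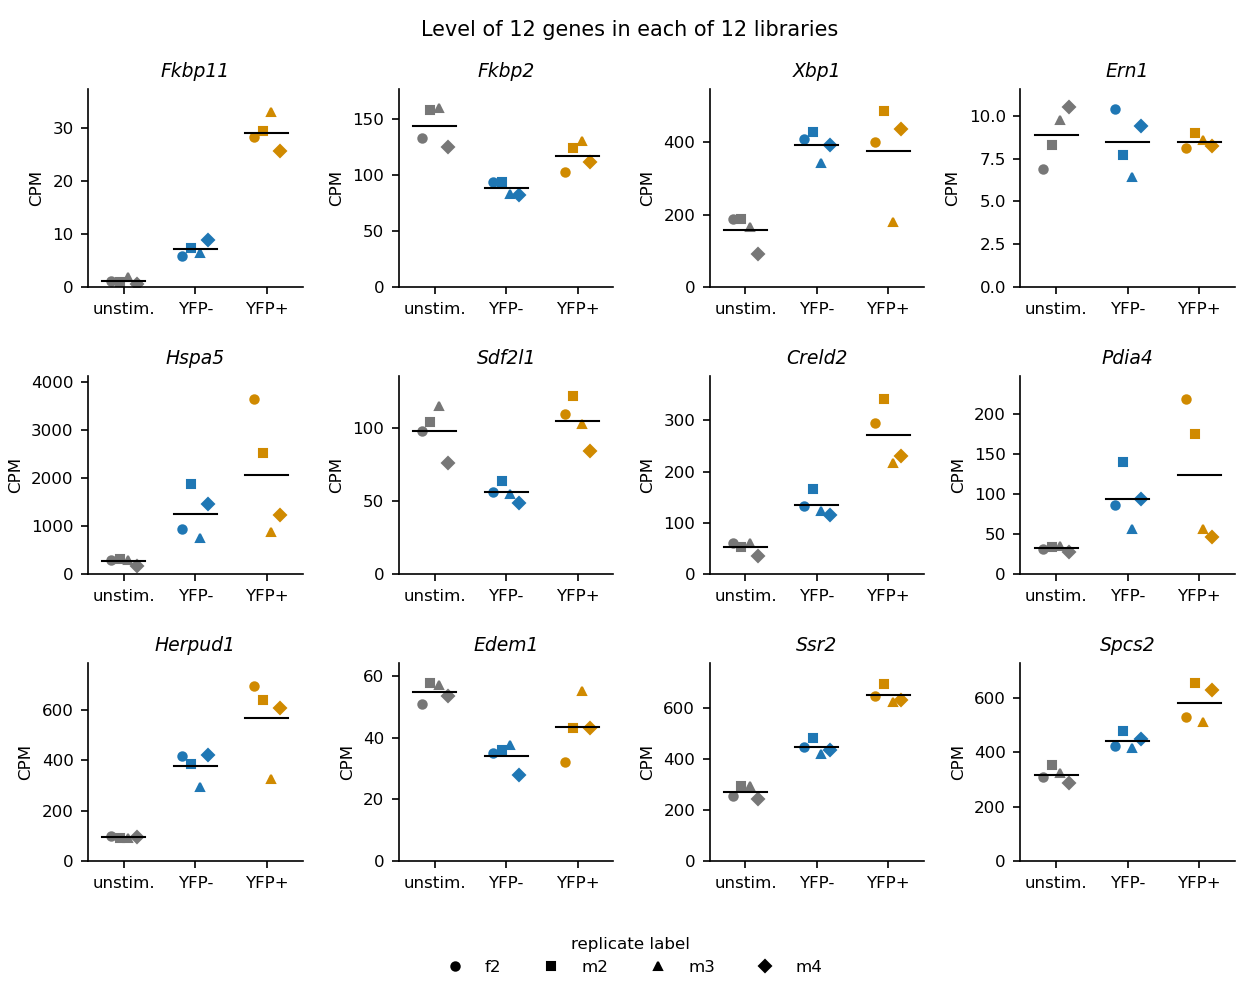
Level in CPM (y axis, from 0) of 12 genes in each of the 12 libraries by group (x axis). Marker shapes give the replicate label and horizontal bars the group mean. Fkbp11 in YFP+ samples lies at 25.6 to 32.9 CPM, above every other sample, while Hspa5 in the YFP+ library m3 lies at 870 CPM, below the other 3 libraries of its group.

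Among the chaperones and their cochaperones, 8 of 11 rose and 1 fell in YFP- cells, and 9 of 11 rose and 0 fell in YFP+ cells. That was 81.8% called in each group, beside 51.1% and 60.8% of all genes. Hspa5 (BiP, the ER member of the HSP70 family, which also holds the sensors inactive; chromosome 2, 34771970 to 34777547) had the largest rise of the role in both. Unstimulated samples held 298, 306, 293 and 162 CPM, YFP- samples 935, 1880, 743 and 1450 CPM, and YFP+ samples 3640, 2520, 870 and 1240 CPM. Stimulated and unstimulated samples did not overlap, whereas the YFP+ libraries m3 and m4 lay within the YFP- range. The log2 fold change was 2.19 ± 0.41 (adjusted p = 0.00059) in YFP- and 2.79 ± 0.41 (adjusted p = 4.8e-05) in YFP+ cells, or 3.13 without the YFP+ library m3. On totals without rRNA-like features the YFP+ levels were still uneven, at 4220, 3010, 1240 and 1610 CPM.

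The partners of BiP rose as well. Hyou1, a large chaperone that exchanges the nucleotide of BiP, rose by 1.39 ± 0.16 and 2.29 ± 0.16 on the log2 scale in YFP- and YFP+ cells. Dnajb9, a J protein that keeps IRE1 bound to BiP, rose by 1.46 ± 0.17 and 2.23 ± 0.17, and the J protein Dnajb11 by 1.15 ± 0.21 and 1.57 ± 0.21. Dnajc3, a further J protein, passed the test in YFP+ cells (0.97 ± 0.20, adjusted p = 0.0007) but not in YFP- cells (0.40 ± 0.20, adjusted p = 0.101). Creld2, an ER protein induced by stress, held 60.9, 52.9, 61.7 and 34.6 CPM in unstimulated, 132, 167, 123 and 116 CPM in YFP- and 294, 342, 217 and 231 CPM in YFP+ samples. The 3 groups of Creld2 did not overlap, and it rose by 1.38 ± 0.20 (adjusted p = 8.6e-05) and 2.38 ± 0.20 (adjusted p = 3.1e-07). Manf, a secreted and ER-resident factor, rose by 0.72 ± 0.11 and 1.68 ± 0.11.

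Not every chaperone followed. Sdf2l1, which acts with J proteins on BiP clients, held 97.8, 104, 115 and 76.4 CPM in unstimulated, 56.0, 64.2, 54.7 and 49.1 CPM in YFP- and 110, 122, 103 and 84.2 CPM in YFP+ samples. It fell in YFP- cells by 0.80 ± 0.15 on the log2 scale (adjusted p = 0.00069) with no overlap of the groups, and in YFP+ cells it differed from unstimulated cells by 0.09 ± 0.15 (adjusted p = 0.62), with overlapping groups and a sign that changed with scaling. Hsp90b1 (GRP94, the ER member of the HSP90 family) did not pass the test in either group, at -0.24 ± 0.14 and 0.27 ± 0.14. In YFP- cells its fall was called with 3 scalings, at -0.42 on totals without rRNA-like features, -0.38 with median centring and -0.50 with quantile normalization. In YFP+ cells it was called higher at 0.40 with TMM scaling (adjusted p = 0.0158), 0.39 with median centring (adjusted p = 0.0047) and 0.40 with voom weights (adjusted p = 0.0141). The lectin chaperone Calr (calreticulin) rose by 0.90 ± 0.22 and 1.30 ± 0.22. Its membrane relative Canx (calnexin) rose by 0.32 ± 0.12 and 0.38 ± 0.12, calls lost on totals without rRNA-like features (adjusted p = 0.232 and 0.092).

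Of the 4 disulfide isomerases, which form and rearrange disulfide bonds, 3 rose in YFP- and 2 in YFP+ cells. The share called was 75% and 50%, beside 51.1% and 60.8% of all genes, and so below that of all genes in YFP+ cells. Pdia4 held 31.7, 34.1, 35.2 and 27.4 CPM in unstimulated, 86.0, 140, 56.8 and 94.2 CPM in YFP- and 219, 175, 56.3 and 46.4 CPM in YFP+ samples. Stimulated samples did not overlap unstimulated ones, but the YFP+ libraries split into f2 and m2, which were high, and m3 and m4, which were below every YFP- sample. Pdia4 rose by 1.49 ± 0.43 (adjusted p = 0.011) and 1.64 ± 0.43 (adjusted p = 0.0046). Pdia6 held 319, 320, 344 and 225 CPM, then 648, 670, 546 and 610 CPM, and 1280, 1200, 609 and 937 CPM in the same order of groups. Only the YFP+ library m3 reached into the YFP- range. Pdia6 rose by 1.05 ± 0.21 (adjusted p = 0.00089) and 1.70 ± 0.21 (adjusted p = 8.8e-06).

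P4hb, the founding protein disulfide isomerase, rose in YFP- cells by 0.96 ± 0.37 (adjusted p = 0.0408), a call that was lost without replicate m2 (adjusted p = 0.081), m3 (adjusted p = 0.0555) or m4 (adjusted p = 0.134), or without the unstimulated library m4 alone (adjusted p = 0.118). In YFP+ cells P4hb was at 857, 850, 260 and 265 CPM, with m3 and m4 inside the unstimulated range of 198 to 361 CPM, and did not pass the test (0.72 ± 0.37, adjusted p = 0.104). Without the YFP+ library m3 it was called, at 1.01 (adjusted p = 0.0183), as it was with the replicate label as a block (0.72, adjusted p = 0.0329). Pdia3, which works with the lectin chaperones, did not pass in either group (0.40 ± 0.30 and 0.42 ± 0.30). It too was called in YFP+ cells without the library m3, at 0.71 (adjusted p = 0.0203).

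The prolyl isomerases, which turn the peptide bond before proline, held the most and the least elevated of the folding enzymes in YFP+ cells. Fkbp11 (chromosome 15, 98724366 to 98728198) encodes a membrane-anchored isomerase known from secretory tissues. Unstimulated samples held 1.21, 0.868, 1.83 and 0.493 CPM (16 to 73 reads), YFP- samples 5.94, 7.44, 6.45 and 8.83 CPM, and YFP+ samples 28.2, 29.4, 32.9 and 25.6 CPM. The 3 groups lay apart, and the YFP+ libraries were within a narrow range that included m3, its highest value. The ratio of mean CPM was 6.51 for YFP- and 26.4 for YFP+ over unstimulated samples, and 4.05 for YFP+ over YFP- samples. Per kilobase of exon, Fkbp11 still had a mean of only 10.7 CPM in YFP+ samples, beside 71.6 CPM for Fkbp2 and 489 CPM for Hspa5. Lengths here are of all annotated exons of a gene joined, which can exceed the transcript expressed, so comparison between genes is rough.

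Fkbp2, a small soluble isomerase of the ER lumen, moved the other way. Its level was 133, 158, 160 and 125 CPM in unstimulated, 93.7, 93.7, 83.6 and 82.7 CPM in YFP- and 103, 124, 131 and 112 CPM in YFP+ samples. YFP- samples were below all unstimulated ones, and YFP+ samples lay between and overlapped the latter. Fkbp2 fell by 0.70 ± 0.12 on the log2 scale in YFP- cells (adjusted p = 0.00034). In YFP+ cells the fall was 0.29 ± 0.12 (adjusted p = 0.0498), and it was not called with TMM scaling (-0.16, adjusted p = 0.171) or without any 1 replicate label.

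Promoters were searched for short elements as a description, with no test. RefSeq promoter windows, which run from 250 bases before to 50 bases after the start site on GRCm38.p6, were matched by symbol for 34 of the 42 genes. The ER stress element, bound by ATF6 with NF-Y, was searched on both strands as CCAAT, 9 bases of any kind, then CCACG. It was in the windows of 9 of the 34 genes (26.5%: Hspa5, Hsp90b1, Dnajc3, Pdia6, Calr, Canx, Creld2, Derl3 and Syvn1) and of 37 of 27025 genes in all (0.137%). A second element, ATTGG, 1 base, then CCACG, was in Dnajb11 and Herpud1 (5.88%) and in 12 genes in all (0.0444%). The XBP1-type element, searched as the exact letters TGACGTGG, was in 0 of the 34 and in 193 genes in all (0.714%). The shorter core CCACG was in the windows of 28 of the 34 genes (82.4%) and of 35.5% of all genes. Fkbp11 was among the 28, through a window that is not printed here. The sequences that follow are from a strongly raised gene with the ER stress element (Hspa5), a gene with 2 copies that did not pass the test (Hsp90b1), one with the reverse orientation (Creld2), one with the second element (Herpud1), and Fkbp11. In Fkbp11 the ER stress element, the second element and the XBP1-type element were all absent. Capitals mark the outer blocks of each element, or the whole second element, and all are written 5′ to 3′ on the strand of the gene.
Hspa5, chr2:34772020-34772048, plus strand: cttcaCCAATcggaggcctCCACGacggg
Hsp90b1, chr10:86705510-86705694, minus strand: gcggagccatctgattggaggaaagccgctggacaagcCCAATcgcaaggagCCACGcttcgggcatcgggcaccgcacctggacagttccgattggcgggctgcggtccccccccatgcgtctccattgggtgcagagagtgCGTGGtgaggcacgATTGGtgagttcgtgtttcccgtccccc
Creld2, chr15:88819396-88819645, plus strand: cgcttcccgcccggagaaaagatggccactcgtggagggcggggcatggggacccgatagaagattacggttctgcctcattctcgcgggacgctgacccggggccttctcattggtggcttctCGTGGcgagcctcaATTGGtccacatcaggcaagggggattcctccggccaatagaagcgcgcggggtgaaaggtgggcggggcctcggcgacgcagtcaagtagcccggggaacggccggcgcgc
Herpud1, chr8:94386179-94386428, plus strand: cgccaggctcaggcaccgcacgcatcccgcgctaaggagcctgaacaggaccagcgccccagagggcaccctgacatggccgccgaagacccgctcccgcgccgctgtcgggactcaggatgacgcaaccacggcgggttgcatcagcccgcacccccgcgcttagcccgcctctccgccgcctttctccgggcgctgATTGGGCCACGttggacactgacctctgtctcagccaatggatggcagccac
Fkbp11, chr15:98728199-98728448, minus strand: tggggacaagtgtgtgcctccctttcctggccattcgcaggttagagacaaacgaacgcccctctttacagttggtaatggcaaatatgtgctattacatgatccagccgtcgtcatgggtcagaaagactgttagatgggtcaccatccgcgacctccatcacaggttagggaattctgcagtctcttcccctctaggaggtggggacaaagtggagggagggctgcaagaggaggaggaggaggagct

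In Hspa5 the element began 65 bases before the RefSeq start, and GENCODE M21 places the first exon of Hspa5 further upstream, so that this stretch lies inside it. The 2 copies of Hsp90b1 began 212 and 107 bases before the start, in opposite orientations. The 8 tested genes with the ER stress element had median log2 fold changes of 0.79 in YFP- and 1.24 in YFP+ cells against unstimulated cells, with 6 and 7 of 8 called higher. The 25 tested genes whose windows lacked it had medians of 0.44 and 0.66, with 16 and 19 called higher. Over all genes tested, 30.2% and 27.5% were called higher. The ranges overlapped, from -0.24 to 2.19 with the element and from -0.80 to 2.83 without it in YFP- cells. A match of letters is a description and shows no binding.

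**Figure D4:**
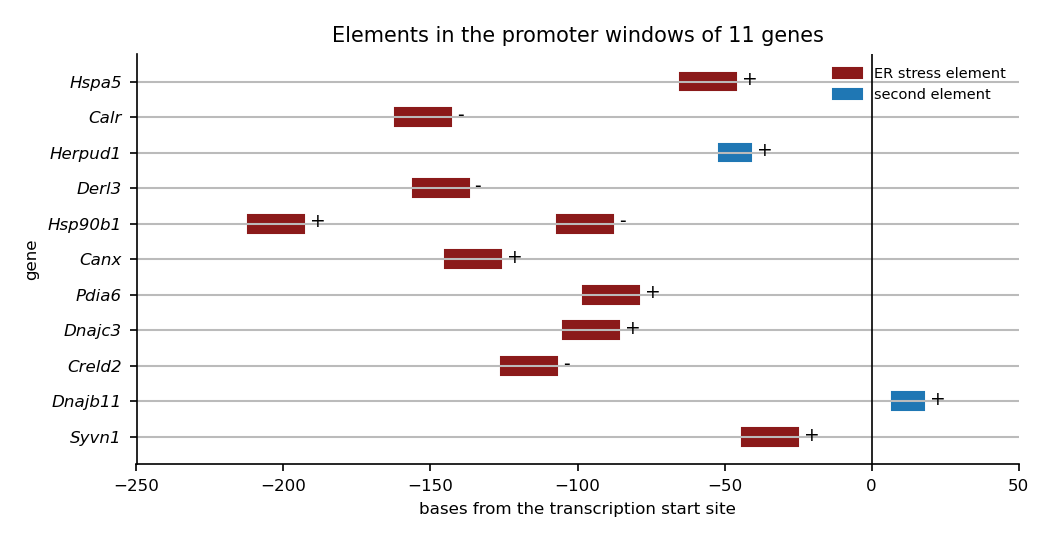
Position of each element (x axis, bases from the RefSeq transcription start site) in the windows of the 11 genes that hold one (y axis), with its orientation relative to the gene as + or -. Of 12 elements, the one in Dnajb11 lies after the start, and Hsp90b1 holds 2 in opposite orientations.

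Of the translocon and its associated complex, 5 of 9 genes rose in YFP- cells and 9 of 9 in YFP+ cells against unstimulated cells. The share called in YFP- cells, 55.6%, was near the 51.1% of all genes, of which 30.2% were higher. In YFP+ cells it was 100%, beside 60.8% of all genes, of which 27.5% were higher. Sec61a1, the channel itself, held 70.2, 74.1, 73.7 and 70.0 CPM in unstimulated, 115, 202, 95.6 and 112 CPM in YFP- and 209, 168, 141 and 158 CPM in YFP+ samples. Its YFP- library m2 stood above the other 3 of its group, and no stimulated sample overlapped the unstimulated ones. Sec61a1 rose by 0.80 ± 0.20 (adjusted p = 0.004) and 1.21 ± 0.20 (adjusted p = 0.00012). The small channel subunits moved less. Sec61b was called in YFP+ cells alone (0.54 ± 0.11) and was at 0.10 ± 0.11 in YFP- cells. Sec61g was at 0.01 ± 0.14 in YFP- cells and rose by 0.37 ± 0.14 in YFP+ cells (adjusted p = 0.0398), a call lost without the YFP+ library m3 (adjusted p = 0.0912) or the unstimulated library m4 (adjusted p = 0.056). Between YFP+ and YFP- cells, a comparison given as a description only, the log2 difference was 0.44 for Sec61b and 0.35 for Sec61g.

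Ssr2, a subunit of the translocon-associated complex, held 257, 294, 293 and 243 CPM in unstimulated, 449, 484, 420 and 434 CPM in YFP- and 647, 695, 624 and 632 CPM in YFP+ samples. The 3 groups lay apart with a small spread in each. It rose by 0.72 ± 0.10 (adjusted p = 4.7e-05) and 1.26 ± 0.10 (adjusted p = 1.4e-07). Its partners Ssr1, Ssr3 and Ssr4 rose less in YFP+ cells, by 0.60 ± 0.20, 0.50 ± 0.11 and 0.40 ± 0.10, and of these Ssr1 also rose in YFP- cells (0.72 ± 0.20). Sec63, which recruits BiP to the channel, was at 19.0, 20.6, 22.0 and 20.1 CPM, then 31.3, 27.6, 26.5 and 25.3 CPM, and 36.5, 41.3, 41.7 and 45.5 CPM. Its groups did not overlap, and it rose by 0.44 ± 0.12 (adjusted p = 0.0075) and 1.01 ± 0.12 (adjusted p = 6.4e-06). In YFP- cells that call was lost without replicate f2 (adjusted p = 0.0559) or m2 (adjusted p = 0.0509). Sec62, its partner, rose by 0.58 ± 0.17 and 0.66 ± 0.17. Its YFP- call was lost on totals without rRNA-like features (0.40, adjusted p = 0.0593), with quantile normalization (adjusted p = 0.0651) and without replicate f2 (adjusted p = 0.0508).

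Signal peptidase, whose 5 genes encode catalytic and accessory subunits, rose by small steps, with 4 of 5 called in YFP- and 5 of 5 in YFP+ cells. These shares, 80% and 100%, stood beside 51.1% and 60.8% of all genes. The accessory subunit Spcs3 held 55.3, 56.0, 52.6 and 46.9 CPM in unstimulated, 69.1, 86.2, 82.8 and 73.9 CPM in YFP- and 88.6, 109, 97.1 and 97.5 CPM in YFP+ samples. Spcs2 held 308, 352, 326 and 289 CPM, then 423, 480, 416 and 450 CPM, and 531, 655, 512 and 628 CPM. For both genes the 3 groups did not overlap. Spcs3 rose by 0.56 ± 0.12 (adjusted p = 0.0012) and 0.89 ± 0.12 (adjusted p = 1.6e-05), and Spcs2 by 0.47 ± 0.11 (adjusted p = 0.0028) and 0.86 ± 0.11 (adjusted p = 1.3e-05). The catalytic subunit Sec11a rose by 0.27 ± 0.10 and 0.39 ± 0.10, and Sec11c rose in YFP+ cells by 0.26 ± 0.10 (adjusted p = 0.0448), with 0.11 ± 0.10 in YFP- cells. The call of Sec11c was lost without any 1 replicate label and that of Sec11a in YFP- cells without f2, m2 or m4. Spcs1 rose by 0.32 ± 0.10 and 0.36 ± 0.10, calls lost on totals without rRNA-like features (0.14, adjusted p = 0.352, and 0.17, adjusted p = 0.232) and with quantile normalization. Its YFP- call was also lost without replicate f2 (adjusted p = 0.0808) or m4 (adjusted p = 0.0929).

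Of 8 genes of ER-associated degradation, 7 were tested, of which 6 rose and 1 fell in YFP- cells and 6 rose and 0 fell in YFP+ cells. That was 100% and 85.7% called, beside 51.1% and 60.8% of all genes. Derl3, a derlin, did not pass the filter, with 2 to 60 reads per library and means of 0.402, 0.279 and 0.603 CPM in unstimulated, YFP- and YFP+ samples. Herpud1, a membrane protein that assembles the ubiquitin ligase complex, held 99.8, 93.7, 94.1 and 94.6 CPM in unstimulated, 415, 384, 293 and 421 CPM in YFP- and 695, 639, 325 and 606 CPM in YFP+ samples. Stimulated samples were all at least at 293 CPM, and the YFP+ library m3 alone lay in the YFP- range. Herpud1 rose by 1.97 ± 0.20 (adjusted p = 4.9e-06) and 2.51 ± 0.20 (adjusted p = 2e-07). Selenos, a selenoprotein that ties the complex to the p97 ATPase, held 183, 188, 190 and 140 CPM, then 327, 334, 292 and 316 CPM, and 666, 681, 504 and 623 CPM. Its groups lay apart, and it rose by 0.87 ± 0.13 (adjusted p = 9.3e-05) and 1.82 ± 0.13 (adjusted p = 5.9e-08).

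The derlins Derl1 and Derl2, channel-like proteins of the pathway, rose by 1.17 ± 0.17 and 0.36 ± 0.11 in YFP- and by 1.37 ± 0.17 and 0.68 ± 0.11 in YFP+ cells. Sel1l and Syvn1, the adaptor and the ubiquitin ligase at the centre of the complex, rose by 0.63 ± 0.15 and 0.67 ± 0.22 in YFP- and by 0.74 ± 0.15 and 1.18 ± 0.22 in YFP+ cells. The YFP- calls of Derl2 and Syvn1 were lost without replicate f2 (adjusted p = 0.114 and 0.0977) or m2 (adjusted p = 0.0531 and 0.157). Edem1, which trims mannose from misfolded glycoproteins, was the exception, at 51.0, 57.8, 56.9 and 53.5 CPM in unstimulated, 35.0, 36.0, 37.6 and 27.8 CPM in YFP- and 32.2, 43.1, 55.1 and 43.0 CPM in YFP+ samples. All YFP- samples were below all unstimulated ones, and the YFP+ library m3 reached the unstimulated range. Edem1 fell by 0.69 ± 0.16 in YFP- cells (adjusted p = 0.0025) and differed by -0.36 ± 0.16 in YFP+ cells (adjusted p = 0.0605), where the fall was called without the library m3 (-0.49, adjusted p = 0.0102).

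The summed level of all 42 genes was 4200 to 5710 CPM without stimulation, 7410 to 10000 CPM for YFP- and 8580 to 14500 CPM for YFP+ libraries. The translocon genes summed to 1030 to 1220, 1370 to 1600 and 1860 to 1960 CPM, with no overlap between groups. The YFP+ libraries f2, m2, m3 and m4 lay further apart on totals without rRNA-like features, at 2160, 2340, 2730 and 2440 CPM. The chaperones summed to 913 to 1380, 1980 to 3410 and 2560 to 5870 CPM, and the disulfide isomerases to 671 to 1200, 1570 to 2050 and 1210 to 3080 CPM. In both of the latter roles the YFP+ libraries f2 and m2 were above m3 and m4. On totals without rRNA-like features this order remained. In f2, m2, m3 and m4 the chaperones were then at 6800, 5920, 3640 and 4060 CPM and the disulfide isomerases at 3570, 3520, 1720 and 2270 CPM. The rRNA-like shares of those YFP+ libraries were 13.7, 16.3, 29.8 and 23.1% for f2, m2, m3 and m4, and the part of these shares in the spread was not tested.

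**Figure D5:**
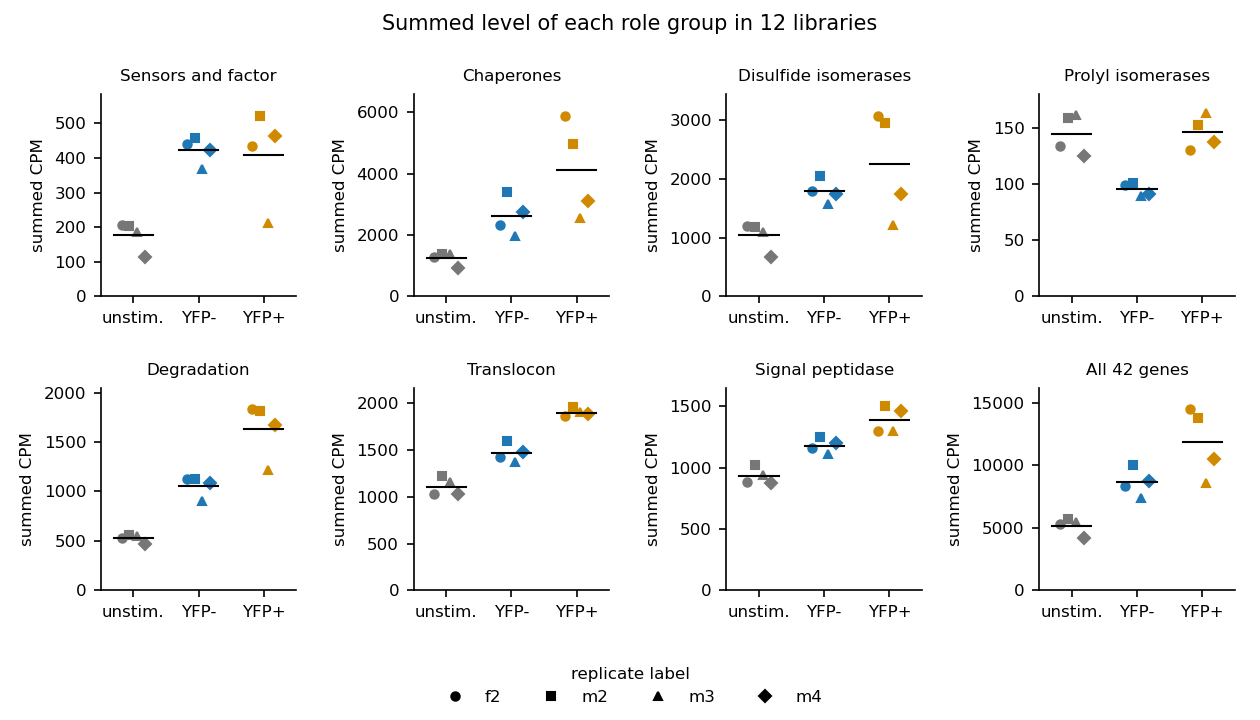
Summed CPM (y axis, from 0) of the genes of each role and of all 42 genes in the 12 libraries by group (x axis). Marker shapes give the replicate label and bars the group mean. YFP+ libraries span 1860 to 1960 CPM for the translocon and 2560 to 5870 CPM for the chaperones.

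Per kilobase of exon, the genes with the highest mean level in unstimulated cells were Sec61b at 178, Ssr2 at 146 and Pdia3 at 130 CPM. In YFP+ cells they were Hspa5 at 489, Selenos at 419 and Ssr2 at 349 CPM. The lowest tested member of the chaperones was Hyou1 in all 3 groups, at 1.28, 3.31 and 6.19 CPM per kilobase in unstimulated, YFP- and YFP+ cells. Of the 42 genes, 15 share exon bases with another annotated gene, 14 of them with a gene on the opposite strand, among them Pdia6, Hsp90b1, Manf, Sec61a1, Sec63, Ssr2 and Spcs3. A use of strand in counting is not given in the sources used here, so reads of such partners cannot be told apart.

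Within the stimulated cells, the YFP+ and YFP- samples were compared as a description only. In that comparison 14 of 41 genes were called, all of them higher in YFP+ cells, beside 21.8% of all genes called, 3.28% higher and 18.5% lower. Without Fkbp11 the count was 13 of 40, and without the YFP+ library m3 it was 18 of 41, beside 19.4% of all genes. With TMM scaling 25 of 41 were called, and the split over all genes became 8.22% higher and 13.5% lower. The median log2 fold change was 0.39, beside -0.19 over all genes. By role, the genes called were 6 of 11 chaperones (Hsp90b1, Hyou1, Dnajb9, Sdf2l1, Creld2 and Manf), Pdia6, both prolyl isomerases, Selenos, 3 translocon genes (Sec61b, Sec63 and Ssr2) and Spcs2. The log2 differences were 2.03 for Fkbp11, 0.96 for Manf, 0.95 for Selenos, 0.90 for Sdf2l1, 0.89 for Hyou1 and 0.77 for Dnajb9. For Creld2 the ratio of mean CPM was 2.01.

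The sensors and Xbp1 were near 0 in the same comparison, at -0.16 for Xbp1, 0.03 for Ern1 and 0.16 for Atf6. Hspa5 was at 0.59, with a range of 0.14 to 0.94 when libraries were left out. Values below 0 were seen for Xbp1, P4hb (-0.24) and Ssr1 (-0.11). Each of those 3 genes had its lowest YFP+ value in the library m3, which was the lowest of its group for 20 of the 41 genes. P4hb was about as low in m4, at 265 CPM beside 260 CPM in m3.

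The other genes of the pathway, in 6 lists that do not contain the 42, gave the wider setting. Against unstimulated cells, 64 of 118 tested rose and 14 fell in YFP- cells (66.1% called), and 71 rose and 15 fell in YFP+ cells (72.9% called). Over all genes tested, 51.1% were called in the first comparison (30.2% higher) and 60.8% in the second (27.5% higher). Of the PERK arm and other regulators, 12 of 15 rose and 2 fell in YFP- cells, and 10 rose and 2 fell in YFP+ cells. The genes that fell, named after their values were seen, were Eif2ak3 and Bloc1s1. Eif2ak3, which encodes PERK itself, fell by 1.72 ± 0.22 (adjusted p = 2.6e-05) and 1.43 ± 0.22 (adjusted p = 6.3e-05), from a mean of 22.8 CPM to 7.02 and 8.61 CPM. Bloc1s1, a known target of IRE1-dependent decay, fell from a mean of 11.5 CPM to 8.05 CPM (adjusted p = 0.0127) and 5.33 CPM (adjusted p = 3e-05), and its YFP- call was lost without replicate m2 (adjusted p = 0.0645) or m3 (adjusted p = 0.0584). Chac1 and Trib3, targets of the PERK arm through ATF4, rose by 3.37 ± 0.19 and 2.25 ± 0.30 in YFP- and by 3.79 ± 0.19 and 2.69 ± 0.30 in YFP+ cells. Wfs1, an ER membrane protein that restrains the response, rose by 1.72 ± 0.28 and 2.49 ± 0.28, from a mean of 0.681 CPM. With 0.462 to 1.13 CPM in unstimulated samples, it passed the filter through its level in stimulated cells.

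Of 20 other folding genes, 8 rose and 2 fell in YFP- cells, and 9 rose and 4 fell in YFP+ cells. The share called in YFP- cells, 50%, was near that of all genes. Dnajc1 rose by 1.39 ± 0.25 and 1.25 ± 0.25. Pdia5, a disulfide isomerase, rose by 1.28 ± 0.41 and 2.35 ± 0.41, and Hspa13, a microsomal HSP70 relative, by 1.28 ± 0.14 and 1.66 ± 0.14. Ero1l fell by 1.04 ± 0.19 and 0.72 ± 0.19, from a mean of 201 CPM to 95.1 and 120 CPM. Ganab fell by 0.63 ± 0.15 and 0.93 ± 0.15. Of 18 other degradation genes, 10 rose and 1 fell, then 14 rose and 2 fell, with Vcp, the p97 ATPase, at 1.21 ± 0.30 and 1.32 ± 0.30 and its cofactor Ufd1 at 1.02 ± 0.19 and 0.99 ± 0.19. Rnf5 fell in both groups, by 0.50 ± 0.11 and 0.77 ± 0.11. Of 12 genes of the oligosaccharyltransferase, which adds glycans, 5 rose and 3 fell, then 5 rose and 1 fell, with Rpn1 at 1.72 ± 0.49 and 1.61 ± 0.49. Ost4 fell in both groups, by 0.60 ± 0.17 and 0.57 ± 0.17. The share of that list called in YFP+ cells, 50%, was below that of all genes. Of 22 genes of signal recognition and membrane insertion, 15 rose and 2 fell, then 14 rose and 2 fell. Srprb, the membrane subunit of the signal recognition particle receptor, rose by 1.79 ± 0.20 and 2.26 ± 0.20. Srp54c, at 2.11 ± 0.42 and 1.74 ± 0.42, has near-identical copies, and its value is uncertain.

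Of 31 genes of ER to Golgi transport, 14 rose and 4 fell in YFP- cells, and 19 rose and 4 fell in YFP+ cells. The coat subunit Sec23b rose by 1.89 ± 0.47 and 2.17 ± 0.47, and the cargo receptor Lman1 by 0.80 ± 0.13 and 1.66 ± 0.13. Kdelr3, a receptor that returns ER proteins from the Golgi, fell by 2.47 ± 0.42 in YFP- and 1.48 ± 0.42 in YFP+ cells. Its mean went from 3.69 CPM to 0.696 and 1.44 CPM. With at most 0.993 CPM in YFP- samples, it passed the filter through its level in the other groups. Between YFP+ and YFP- cells, 15 of the 118 genes were called higher and 2 lower (14.4%), beside 21.8% of all genes called, 3.28% higher and 18.5% lower, as a description. Those 2 were Bloc1s1 at -0.59 and Kdelr1 at -0.50, and neither was called with TMM scaling.

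Plasma cells express this machinery highly, so markers of B and plasma cells were examined. Of 12 such markers, 4 passed the filter on low values. Mzb1 had 0 to 1 reads, Pax5 0 to 2 and Igkc 0 to 4 reads in every library. The summed level of the list was 132 to 190 CPM without stimulation, 180 to 332 CPM for YFP- and 61.6 to 182 CPM for YFP+ samples, of which Ighm made up most, at 130 to 186, 173 to 322 and 56.6 to 167 CPM. Sdc1 (syndecan 1) was at 0 to 0.402, 5.28 to 10.6 and 3.20 to 13.8 CPM, and Pou2af1 at 0, 0.700 to 1.76 and 1.27 to 2.90 CPM. Of 9 T cell markers, 5 passed the filter, and Cd3e, Cd4 and Cd8a were at most at 1.49 CPM. The T cell list summed to 513 to 582 CPM without stimulation, 741 to 846 CPM for YFP- and 836 to 943 CPM for YFP+ libraries, with no overlap between unstimulated and stimulated libraries. Receptor constant-region genes made up most of it, with Trbc1 at 297 to 352, 448 to 491 and 476 to 576 CPM and Trbc2 at 135 to 172, 226 to 268 and 258 to 314 CPM. Trac was at 6.83 to 8.47, 27.6 to 41.9 and 40.4 to 54.5 CPM. Cd3d did not rise, at 14.2 to 25.9, 12.8 to 20.6 and 7.25 to 13.8 CPM. Nor did Cd3g, at 30.9 to 79.4, 24.4 to 41.7 and 11.7 to 31.9 CPM. Of the 5 tested T cell markers, 3 were called higher and 2 lower in YFP+ against unstimulated cells. The sum of the T cell list thus rose with the 42 genes through its receptor constant-region genes, while Cd3d and Cd3g did not. The part of the B, plasma and T cell lists in the results was not tested. Myeloid and red cell lists summed to at most 3.29 and 0.326 CPM.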

How the data were processed

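Values for all 12 samples were deposited as moderated log2 CPM in a single table, per the file headers. Per the submitters' processing notes, bcl2fastq, STAR 2.7.9a, Subread, featureCounts 2.0.3 and the build GRCm38 were used. Libraries were made with the SMARTer Ultra Low kit and read as pairs, per the labels' protocols. Of 55774 lines, 287 were repeats and were dropped, and 0 columns belonged to no sample. Values ran from -6.349 to 17.4 and matched the log2 of reads plus a prior of 0.5 reads, scaled by library size, to within 5.15e-14. CPM and whole reads were recovered from them, with 100% of values within 0.01 of a whole number. Floors of 3 reads cover counting error only.

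Genes above a log2 CPM of 0 in at least 4 samples (12364) were fitted over all 12 samples with limma 3.58.1 (R 4.3.3; lmFit, contrasts, eBayes with trend), and Benjamini-Hochberg adjusted p-values were taken over all genes, with calls under 0.05. Fold changes are on the log2 scale of the deposited values, whose prior understates changes of low genes. In simulated reads with 200 genes changed in YFP+ samples, 192 were called in YFP+ against unstimulated samples, 90.9% at a fold of 2 and 100% at a fold of 4, with 9 unchanged genes among 12140. The simulation gave every gene the same dispersion and no shift of the rRNA-like share between groups. In the data, 60.8% of genes were called in that comparison, and the log2 standard deviation of Pdia4 was 1.13 in YFP+ samples. The simulated rates are therefore not those of the fit to the data.

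The 42 genes, the roles, the lists and the tests were chosen with earlier results of these data known. Values in every sample are given for Fkbp11, Xbp1, Ern1, Atf6 and Hspa5 and, per role and comparison, for the largest rise and fall among called genes with a mean log2 CPM of at least 2. Up to 3 called genes per other list and comparison are named by size of change, and further genes that fell were named after their values were seen. Other genes were named to account for all 42. The symbols Wrb and Camlg were not matched, and Ddit3 was read from the identifier with more reads. Gene positions and exon lengths, over all annotated exons of a gene joined, are from GENCODE M21 and promoters from RefSeq on GRCm38.p6, not from the authors. Protein sequences were not analysed here. The rRNA-like features were 356 by biotype and 3 named after their levels were seen (359). Other settings tried were the replicate label as a block, the 8 samples compared alone, other filters, a pseudocount of 1 CPM, TMM scaling, totals without rRNA-like features, median centring, quantile normalization, voom weights, a fold of at least 2, and leaving out each replicate label. Leaving out the YFP+ library m3 or the unstimulated library m4 was added after seeing the data.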

Additional observations from a re-analysis of the deposited data

Results flagged for a closer look

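Of 123 sets of 4 values (41 genes in 3 groups), 8 held a value whose gap to the nearest other exceeded the 95% limit of Dixon for the range of the set, beside 6.15 expected when chance marks 1 in 20. All 8 were in unstimulated samples. The library m4 was the lowest for Hspa5 (162 CPM against 293 to 306, gap ratio 0.93), Pdia3 (219 against 436 to 494, 0.846), Derl1 (49.0 against 64.9 to 68.5, 0.840) and Selenos (140 against 183 to 190, 0.871). The library f2 was the highest for Dnajb9 (7.21 CPM against 5.49 to 5.66, 0.889) and Herpud1 (99.8 against 93.7 to 94.6, 0.845), and the lowest for Sec61g (101 against 125 to 129, 0.862). The library m2 was the lowest for Atf6 (7.79 CPM against 9.59 to 9.97, 0.843).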

How the results depend on the processing

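Requiring a fold of at least 2 left 12 of 41 genes called in YFP- and 19 in YFP+ cells against unstimulated cells, from 32 and 35, and 1 of 14 between YFP+ and YFP- cells. Over all genes, 26.2%, 36.8% and 10.2% were then called in the same order, and 15.4%, 14.8% and 0.736% were called higher. Between YFP+ and YFP- cells the count was 9 with no filter, 25 with TMM scaling, 32 with median centring, 22 with quantile normalization and 27 with voom weights. The shares of all genes called in those settings were 6.14%, 21.8%, 24.2%, 21% and 22.4%. Leaving out samples gave 25 to 33, 30 to 37 and 10 to 18 genes in the 3 comparisons. Of all genes, 38.2 to 54.8%, 52.3 to 63% and 12.7 to 21.1% were then called. The sign of small changes depended on scaling, and the cause was not tested. In YFP- cells, Sec61g was at -0.01 with TMM or voom, -0.17 without rRNA-like features in the totals, -0.12 with centring and -0.23 with quantiles. In those last 3 settings, in the same order, Sec11c was at -0.07, -0.02 and -0.13, Sec61b at -0.08, -0.04 and -0.17, and Ssr4 at -0.05, -0.01 and -0.14, while quantiles put Sec11a at -0.01 and Ssr3 at -0.02. In YFP+ cells, Ern1 was at 0.09 with TMM, 0.08 with centring, 0.14 with quantiles and 0.10 with voom, and Sdf2l1 at -0.10 without rRNA-like features and -0.07 with quantiles. With samples left out, Ern1 ranged from -0.29 to 0.11 in YFP- and from -0.13 to 0.06 in YFP+ cells, Sec61g from -0.03 to 0.11 in YFP- cells and Sdf2l1 from -0.02 to 0.18 in YFP+ cells.

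With the replicate label as a block, 33, 37 and 19 genes were called, beside 54%, 62.9% and 25.1% of all genes. Dnajc3 in YFP- cells (adjusted p = 0.0398) and P4hb (adjusted p = 0.0329) and Edem1 (adjusted p = 0.0423) in YFP+ cells were gained against unstimulated cells. Deviations of samples with the same label correlated at -0.0587 to 0.1 between YFP- and unstimulated, -0.0421 to 0.375 between YFP+ and unstimulated and 0.0539 to 0.374 between YFP+ and YFP- samples. In the last comparison the same label correlated best for m2 (0.35, other labels at most -0.0627), m3 (0.374 and 0.00314) and m4 (0.172 and 0.168). For f2 it did not (0.0539 and 0.357). These correlations cannot decide if samples were paired. The main fit was unpaired because the labels do not state it. Derl3 was not tested, since its level was under the filter on CPM.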
